A study of Mus musculus with 20 samples.

Results

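Aspartate codon sites are the codon positions of mouse mRNAs at which the codon reads GAC or GAT. They were taken from ribosome footprint data of the hippocampus as every row with either codon in the tables of single-codon occupancy and in the tables of mean codon enrichment, 1 of each per library. The occupancy tables held 185896 aspartate rows among 2304948 rows of sense codons over the 10 footprint libraries, of which 111348 were GAC and 74548 were GAT. These rows fell on 40160 distinct aspartate sites among 586145 distinct sites. The enrichment tables held 20 aspartate rows among 610, which give 362 of the 11041 combinations of codon and position in each library. The libraries came from 3 female Qtrt1-/- (KO) mice, each 6 months 21 days old, and 3 female wild-type (WT) mice, 1 of them 6 months 22 days old and the others 6 months 21 days. The males were 2 Qtrt1-/- and 2 wild-type mice, and in each genotype 1 male was 6 months 18 days old and 1 was 5 months 16 days old. Input RNA of the same 10 animals was sequenced beside the footprints, which are the fragments that ribosomes shield from RNase I in a lysate containing cycloheximide. The study asks whether queuosine in transfer RNA (tRNA) keeps the speed of elongation even between codons that end in C and codons that end in T, in each sex.

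Both aspartate codons are read by a single tRNA family whose anticodon carries guanosine at its first, wobble base. In animals the enzyme complex of Qtrt1 and Qtrt2 exchanges the guanine base there for queuine, a base supplied by the diet and by gut bacteria, to give queuosine. The same exchange takes place in the tRNAs for asparagine, histidine and tyrosine, and in the aspartate tRNA a mannose is then added to the queuosine. The anticodon loop of the aspartate tRNA is also a known substrate of the cytosine methyltransferase Trdmt1, and queuosine is known to favour that methylation. Guanosine pairs with C and wobbles to U, so that GAC and GAT differ in their pairing with an unmodified anticodon.

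The printed windows hold the aspartate codon in capitals with 4 codons on either side, 27 bases in all, written 5′ to 3′ on the coding strand of the GENCODE M21 transcript. They are shown because the genotype difference at single sites was called there or because the site carried very high occupancy. Coordinates are of the aspartate codon in GRCm38, from the match of each mRNA identifier to that annotation, in which 584049 of 584449 listed sites carried the codon that the tables name.

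The sites with more footprints in KO, relative to their mRNA, are shown first, with the aspartate codon itself listed as the site.
Rtn1, chr12:72308838-72308840, minus strand: tccctgatttctGACgtctgctatcca
Wdr47, chr3:108643250-108643252, plus strand: acaggctcttacGATatgaaaataaag
Slc2a13, chr15:91272172-91272174, minus strand: ctctccgacaacGACgcttctgacgtg
Fbxo42, chr4:141199923-141199925, plus strand: gatctgaattggGACctgaagtctgct
Icam5, chr9:21035208-21035210, plus strand: gttacaaagaacGATgacaagcggggc
Gnai3, chr3:108112500-108112502, minus strand: ctcagtgattacGACcttgttctggct

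The next set had fewer footprints in KO, and here the listed site is the codon that follows the aspartate codon in capitals.
Sdhb, chr4:140977441-140977443, plus strand: gccaagctgcagGACcccttctctgtc
Prnp, chr2:131936925-131936927, plus strand: tacaggccagtgGATcagtacagcaac
Nceh1, chr3:27241648-27241650, plus strand: gtcctgcgggacGATgggatcatgtac
Eef1a2, chr2:181149721-181149723, minus strand: aatgtctgcgggGACagcaaagctgac

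The last pair carried the highest occupancy in WT libraries among the aspartate sites with at least 10 footprints in each library, counting 1 site per gene.
Ap1b1, chr11:5033693-5033695, plus strand: gaagggattggaGATagcaactttggg
Hk1, chr10:62340025-62340027, minus strand: gagctgaaggatGACcaagtcaaaaag

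Depth and tissue content were not even between libraries. The occupancy tables summed to between 1071976 and 3032432 footprints per library, the highest being WT male 1 and the lowest WT male 2, and no site lay before codon position 15. Qtrt1 footprints numbered 5, 1 and 4 in KO females against 40, 28 and 30 in WT females, and 10 and 3 in KO males against 94 and 46 in WT males, so that the labels and the targeted gene go together in every library. The summed level of 5 choroid plexus markers, all of them detected in every library, was 9175, 7037 and 2192 CPM (counts scaled to the library's total) in KO females against 142, 287 and 5682 CPM in WT females, and 8777 to 13788 CPM in males. The 3 dentate gyrus markers, detected in every library, summed to 387, 341 and 326 CPM in KO females against 273, 313 and 221 CPM in WT females. The 4 CA field markers, also detected in every library, summed to 902, 875 and 963 CPM in KO females against 734, 863 and 563 CPM in WT females. Both marker sums were higher in every KO female than in any WT female, and both overlapped between genotypes in males. The 3 fibroblast markers summed to 237, 180.0 and 207 CPM in KO females against 72.1, 193 and 75.4 CPM in WT females, and to 149 and 215 CPM in KO males against 227 and 221 CPM in WT males. The 5 striatum markers, of a neighbouring region, summed to between 74.7 and 451 CPM, with the highest value in WT female 1. In such bulk samples fewer cells of a type and less RNA per cell cannot be told apart. For codon enrichment ratios and single sites, fits were also made without WT females 1 and 2. Such fits keep 1 WT female, and they keep KO female 3 at 2192 CPM. A call lost in them cannot be told from lost precision, so they do not test the part of the choroid plexus content. Their differences are given and no conclusion is drawn from them. For the mean occupancies, the shares of footprints and the gene levels, the part of the choroid plexus content was not tested either. The part of the other marker levels was not tested.

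In the enrichment tables the aspartate codons stood out at positions 0 and 1. Position 0 matched the codon listed in the occupancy tables, with a correlation of 0.91 across the 61 sense codons, and position 1 matched the codon that lies 1 codon upstream of it, with a correlation of 0.95. These correlations are across codons of the same libraries and are given as a description, and the tables do not name the ribosomal sites. At position 0 GAC ranked 1 of 61 codons in both KO and WT, with mean ratios of 2.34 and 2.19, where the median codon had 0.829 in KO and 0.843 in WT. GAT ranked 2 of 61 at position 0 in KO and 4 in WT, with mean ratios of 1.86 and 1.68. The order of the codons was the other way round at position 1, where GAT ranked 2 in both genotypes, at 2.53 in KO and 2.83 in WT, and GAC ranked 5 in KO and 4 in WT, at 1.92 and 2.22.

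**Figure D1:**
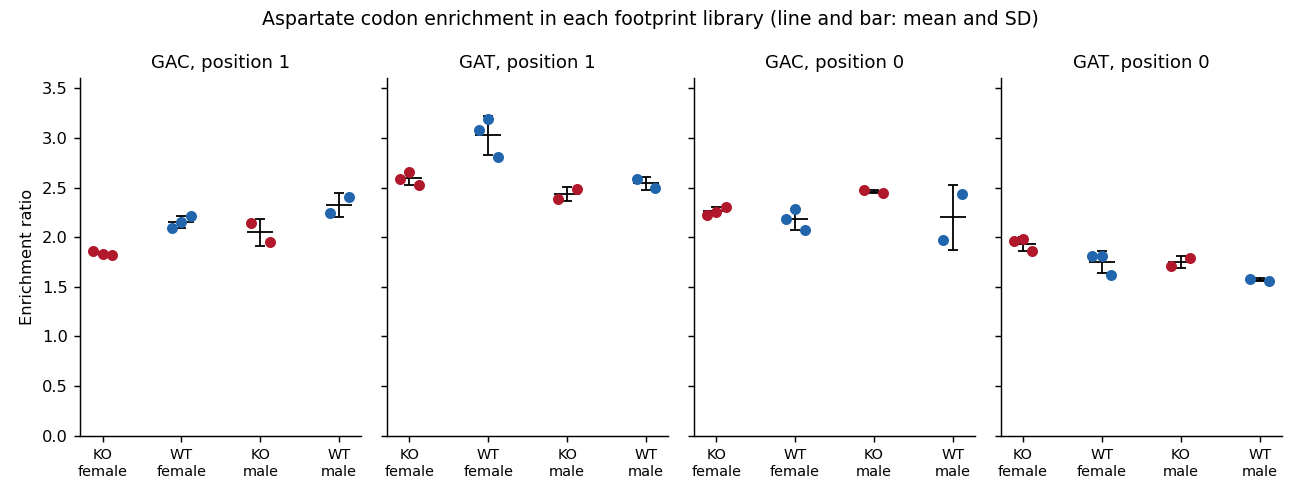
Enrichment ratio (linear axis from 0) of GAC and GAT at positions 1 and 0 in each library, with KO in red and WT in blue and the mean and SD of each group in black. At position 1 the KO libraries sit below every WT library of their sex for both codons, and at position 0 the KO libraries sit above the WT libraries for GAT in both sexes.

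Aspartate codons were less enriched at position 1 in KO than in WT hippocampus. GAC had ratios of 1.86, 1.83 and 1.82 in KO females against 2.09, 2.15 and 2.22 in WT females, and of 2.15 and 1.95 in KO males against 2.24 and 2.41 in WT males. All KO libraries lay below all WT libraries of their sex. GAC fell by 0.21 on the log2 scale in the mean of both sexes (SE 0.04), with an adjusted p of 0.0168 in limma over 61 codons, where 1.64% of codons were called lower. The exact permutation p was 0.0167, the smallest that 120 assignments of genotype within sex allow. GAC fell by 0.23 in females alone (SE 0.05, limma adjusted p = 0.0385), where 3.28% of codons were called lower. The male difference of -0.18 (SE 0.07) was not called, with an adjusted p of 0.271 and 0% of codons called lower, and the test of the difference between the sexes gave an adjusted p of 0.755. The call in both sexes was lost by leaving out KO female 1, KO female 2, WT female 2, KO male 2 or WT male 2, with differences of -0.17 to -0.21 and adjusted p of 0.0512 to 0.0645, and the female call by leaving out any 1 of the 6 females, with adjusted p of 0.0601 to 0.132. Without WT females 1 and 2, the libraries with the lowest choroid plexus level, 1 WT female was left and the difference in both sexes was -0.23. With each ratio divided by the library's median codon, the female difference was -0.33 with an adjusted p of 0.0553. The male value passed without WT male 1, at -0.24 with an adjusted p of 0.0489. With the replicate number as a block, a number that goes with age in males, GAC was not called in both sexes (adjusted p = 0.206) or in females (adjusted p = 0.198).

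GAT at position 1 had ratios of 2.59, 2.66 and 2.53 in KO females against 3.08, 3.19 and 2.81 in WT females. In males GAT had 2.38 and 2.49 in KO against 2.59 and 2.49 in WT, where the higher KO value lay just under the lower WT value. In females GAT fell by 0.22 (log2, SE 0.06, limma adjusted p = 0.0455). The male difference was -0.06 (SE 0.07, adjusted p = 0.901), and the sexes were not shown to differ, with an adjusted p of 0.697. In the mean of both sexes the GAT difference of -0.14 (SE 0.05) missed the threshold with an adjusted p of 0.0994, beside an exact permutation p of 0.0167. The female GAT call was lost without KO female 1, 2 or 3, WT female 1 or 2, or either KO male, with differences of -0.18 to -0.24 and adjusted p of 0.0549 to 0.191. Without both WT females of lowest choroid plexus level, which leaves 1 WT female, the female GAT difference was -0.12. GAT in both sexes passed, at -0.17 with an adjusted p of 0.0327, when WT female 3 was left out, and at -0.22 with an adjusted p of 0.0498 when each ratio was divided by the library's median codon. The female GAT call was also lost with the replicate block (adjusted p = 0.181).

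At position 0 the same codons were not lower in KO. GAT had ratios of 1.96, 1.98 and 1.86 in KO females against 1.81, 1.81 and 1.62 in WT females, and of 1.71 and 1.79 in KO males against 1.58 and 1.56 in WT males. Every KO library was above every WT library of its sex, and the difference of 0.15 in both sexes (SE 0.05) had a limma adjusted p of 0.0667 and an exact permutation p of 0.0167. Of all codons 3.28% were called higher in both sexes, 4.92% in females and 0% in males. GAC had 2.22, 2.26 and 2.30 in KO females against 2.18, 2.29 and 2.08 in WT females, and 2.47 and 2.45 in KO males against 1.97 and 2.43 in WT males, so that the females overlapped and the males did not. The GAC difference in both sexes was 0.11 (SE 0.06, limma adjusted p = 0.19, exact permutation p = 0.1). The GAT value at position 0 passed the threshold without KO male 1 (0.17, adjusted p = 0.0467) or WT male 1 (0.16, adjusted p = 0.0345). When the ratios at both positions were summed, an alternative added after seeing the data, the difference in both sexes was -0.04 (SE 0.04) for GAC and -0.02 (SE 0.04) for GAT, and neither was called. Between the males of the same age, the differences for GAC were -0.06 and -0.31 at position 1 and 0.33 and 0.01 at position 0. For GAT they were -0.12 and -0.00 at position 1 and 0.11 and 0.20 at position 0, so that no pair of males went against the mean direction.

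**Figure D2:**
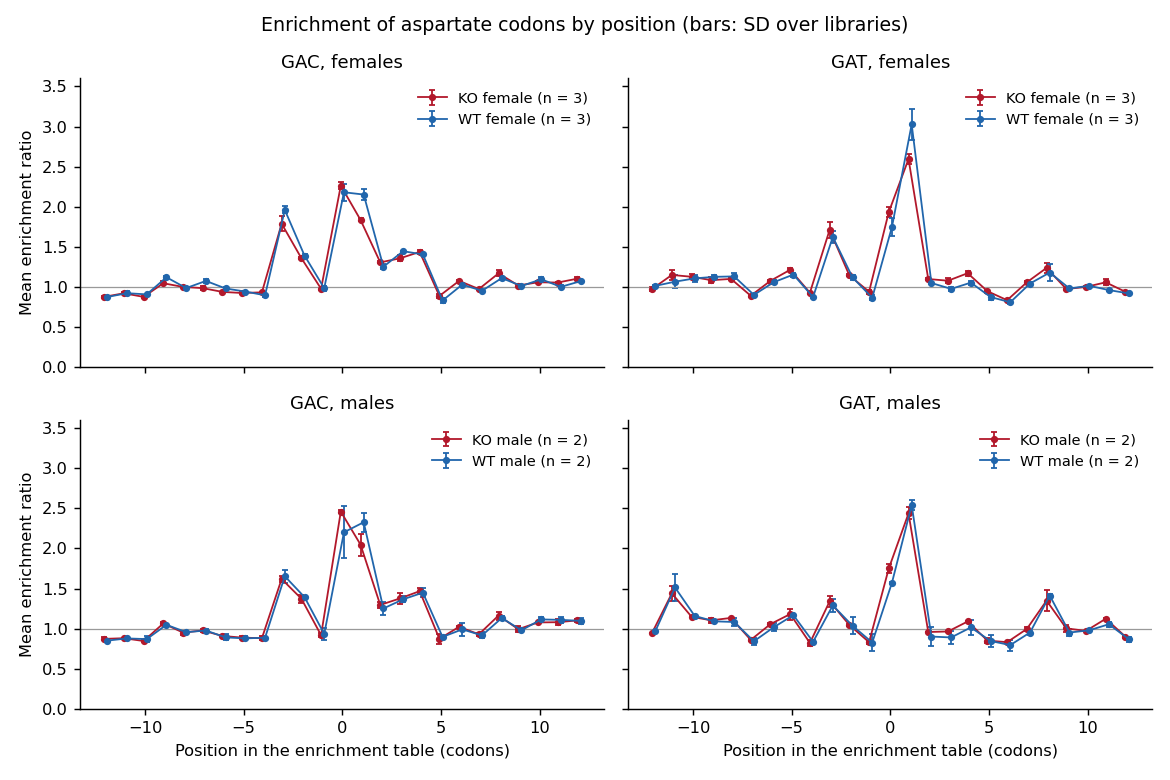
Mean enrichment ratio of GAC and GAT from 12 codons before to 12 codons after position 0, with KO in red, WT in blue, bars for the SD over libraries and a grey line at 1. The peaks are at positions 0 and 1, with a smaller one at position -3, and at position 1 KO lies below WT in all 4 panels.

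The gap between the C-ending and the T-ending codon did not change by more than the spread between libraries. At position 1 the gap, log2 GAC minus log2 GAT, was -0.48, -0.54 and -0.47 in KO females against -0.56, -0.57 and -0.34 in WT females, and -0.15 and -0.35 in KO males against -0.21 and -0.05 in WT males. The genotypes overlapped in both sexes, with a difference of -0.07 in their mean and an exact permutation p of 0.4. The males of both genotypes had the smaller gap, and it was not set against the females in a test. At position 0 the gap was 0.18, 0.19 and 0.31 in KO females against 0.27, 0.33 and 0.36 in WT females, and 0.53 and 0.45 in KO males against 0.32 and 0.64 in WT males. The difference there was -0.04, with an exact permutation p of 0.65. GAC was thus the less enriched codon of the pair at position 1 and the more enriched one at position 0 in every library of both genotypes.

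The direction at position 1 was opposite to that of the other amino acids whose tRNAs carry queuosine, whose 6 codons had differences of 0.15 (AAT) to 0.61 (TAC) on the log2 scale in both sexes. TAC, AAC and TAT rose (limma adjusted p = 0.000249, 0.000249 and 0.0168), and AAT, CAT and CAC did not pass, with adjusted p of 0.0994, 0.112 and 0.334. Among the 61 codons GAC had the second lowest difference between genotypes at position 1 and GAT the ninth lowest, while the median codon had 0.05. A fall at position 1 was not particular to aspartate. Alanine codons differed there by -0.25 (GCG) to -0.08 (GCT) and glycine codons by -0.19 (GGG) to -0.09 (GGA). Just 4 of the 61 codons were lower in KO at position 1 and higher at position 0, and GAC and GAT were among them, against 13 codons with the opposite pair of signs. Each aspartate codon was set against the codons with the same last base for asparagine, histidine and tyrosine, and against 1 glutamate codon, in 8 comparisons chosen after the values were seen. The gap between GAC and the tyrosine codon TAC was 1.06 in KO against 1.90 in WT on the log2 scale, a difference of -0.82 over both sexes. The gap to the asparagine codon AAC was 0.52 in KO against 1.12 in WT, and the gap to the histidine codon CAC was 2.63 in KO against 3.05 in WT, where the libraries overlapped in 1 sex. Against the glutamate codons, which queuosine does not serve, the differences were smaller, at -0.14 for GAC with GAG and -0.17 for GAT with GAA, and GAC against GAG overlapped in 1 sex. These gaps restate differences of the single codons already seen and are given with no test.

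**Figure D3:**
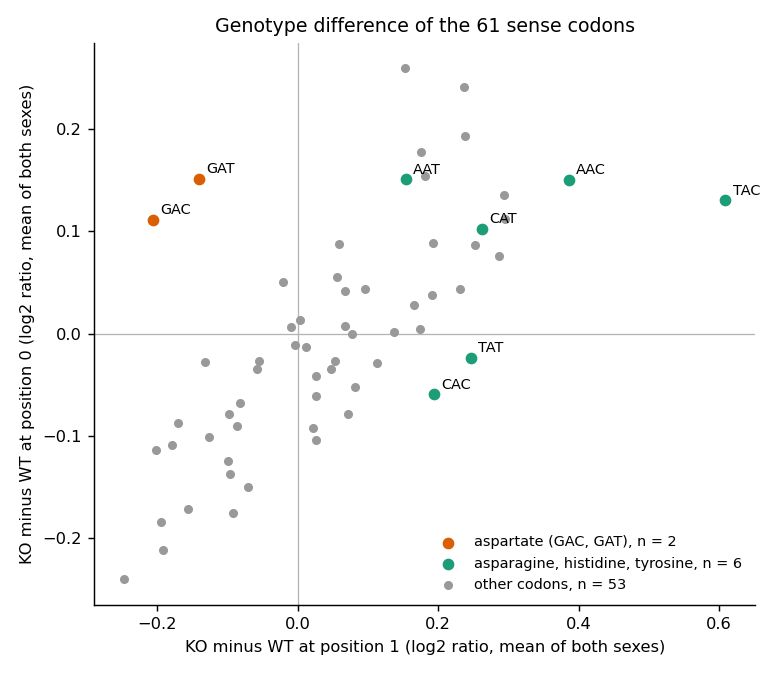
Difference between KO and WT of each of the 61 sense codons at position 1 (x axis) and position 0 (y axis), both as log2 ratios averaged over the sexes. GAC and GAT (orange) are below 0 at position 1 and above 0 at position 0, while the codons of asparagine, histidine and tyrosine (green) are above 0 at position 1.

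Beyond both main positions few aspartate values differed. The positions run from 90 codons before to 90 after, and the fit over all 11041 combinations of codon and position called 14 aspartate values lower and 5 higher in females, among 362, where 5.28% of all combinations were called lower and 3.29% higher. Position 1 was lower for both codons, and the other called positions were scattered, such as -71, -31 and 77 for GAC and -69, 23 and 66 for GAT among the lower ones. No aspartate value was called in males or in the mean of both sexes in that fit, where 0.00906% of combinations were lower and 0.0453% higher, and for GAC at position 1 in both sexes the adjusted p was 0.0549. At position -3, where both codons had a smaller peak, GAC had a mean ratio of 1.79 ± 0.09 in KO females and 1.96 ± 0.04 in WT females, and 1.62 ± 0.04 in KO males and 1.65 ± 0.08 in WT males (SD, n = 3 females and 2 males per genotype). GAT there had 1.71 ± 0.10 in KO females and 1.62 ± 0.08 in WT females, and 1.34 ± 0.07 in KO males and 1.29 ± 0.08 in WT males. The differences in both sexes, -0.08 for GAC and 0.07 for GAT on the log2 scale, had opposite signs, and neither was called in the limma fit over all combinations.

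The single-codon occupancies, the authors' footprints at a codon over the mean of its mRNA, gave the same directions when averaged over all sites. They were averaged over 22488 GAC and 15892 GAT sites in the 5348 mRNAs listed in all libraries, with a codon that a library does not list counted as 0. At listed GAT the mean occupancy was 8.25, 8.08 and 7.70 in KO females against 7.27, 7.50 and 7.19 in WT females, and 8.06 and 8.01 in KO males against 7.15 and 7.23 in WT males. These KO libraries were all above WT of their sex, but the difference of 0.14 had a limma adjusted p of 0.0792 beside an exact permutation p of 0.0167, and 0% of codons were called higher. In the mRNAs with at least 100 footprints listed GAT was called, at 0.16 with an adjusted p of 0.034. With each occupancy capped at 10 it was 0.02 in both sexes (adjusted p = 0.99) and turned to -0.01 in males. Listed GAC averaged 8.03 ± 0.13 in KO females and 7.66 ± 0.19 in WT females, and 8.51 ± 0.31 in KO males and 8.04 ± 1.24 in WT males, where the males overlapped. With the same cap the GAC difference in both sexes was -0.01, where it was 0.08 without it, so that its sign rests on occupancy above 10.

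Sites that follow an aspartate codon had less occupancy in KO. After GAC, over 15775 sites, it was 6.35, 6.31 and 6.06 in KO females against 7.04, 7.40 and 7.33 in WT females, and 6.64 and 6.98 in KO males against 7.19 and 7.18 in WT males. GAC upstream fell by 0.22 in females (SE 0.06, limma adjusted p = 0.043, where 1.64% of codons were called lower), and the difference of -0.15 in both sexes had an adjusted p of 0.0567 beside an exact permutation p of 0.0167. After GAT, over 11437 sites, occupancy averaged 9.12 ± 0.18 in KO females and 10.3 ± 0.7 in WT females, and 9.25 ± 0.08 in KO males and 9.75 ± 0.12 in WT males (adjusted p = 0.152 in both sexes). The female GAC call was lost by leaving out any 1 of the 6 females, with adjusted p of 0.0528 to 0.136, and with the replicate block (adjusted p = 0.163). With the mean taken only over the codons that each library lists, the difference was -0.14 in females (adjusted p = 1) and 0.01 in both sexes. The value thus depends on how codons without footprints are counted. A mean over listed codons also depends on depth, and WT male 1 listed 334021 sites against 173873 in WT male 2. Over annotated positions instead of listed ones, an alternative added later, GAC in both sexes was -0.18 with an adjusted p of 0.0217.

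Shares were taken of the footprints on sense codons in the 5348 mRNAs listed in all libraries. The share on listed GAT was 4.58, 4.67 and 4.29% in KO females against 4.16, 4.12 and 3.69% in WT females, and 3.8 and 4.04% in KO males against 3.58 and 3.40% in WT males. It was higher in every KO library than in any WT library of its sex, by 0.475 percentage points in the mean of both sexes (exact permutation p = 0.0167, the smallest possible). The share on GAC was 6.69 ± 0.15% in KO females and 6.56 ± 0.35% in WT females, and 7.32 ± 0.10% in KO males and 6.59 ± 1.02% in WT males, and the groups overlapped (exact permutation p = 0.317).

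The size of the difference varied with the residue beside the aspartate codon. Whatever codon followed, TAC and AAC at position 1, which matches the codon upstream, differed by 0.61 and 0.39 (log2, both sexes). Listed codons of other amino acids after the same residues were not set beside aspartate, so the part of aspartate itself was not tested. In the 1384 mRNAs with at least 100 footprints in every library, over all annotated aspartate codons, listed aspartate after tyrosine had a mean occupancy of 3.21 in KO females against 2.23 in WT females, and 3.08 in KO males against 2.29 in WT males, over 1352 sites. The KO libraries were above WT in both sexes. Directly after the codon TAC the values were 2.22 in KO females against 1.12 in WT females and 1.90 in KO males against 1.12 in WT males, over 379 sites. After AAC, a codon of asparagine, they were 3.15 in KO females against 1.90 in WT females and 3.20 in KO males against 2.20 in WT males, over 424 sites. After aspartate itself the females overlapped, at 3.41 in KO against 3.48 in WT, and the males did not, at 3.36 in KO against 3.11 in WT, over 2790 pairs. After the 16 residues other than these and histidine, listed GAT remained above WT in both sexes, at 1.67 in KO females against 1.53 in WT females and 1.72 in KO males against 1.52 in WT males. Listed GAC after the same 16 residues overlapped in females, at 1.88 in KO against 1.8 in WT, and was higher in KO males.

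Where aspartate lay 1 codon upstream, the difference varied with the listed residue. Position 0, which matches the listed codon whatever codon came before, showed similar signs for alanine, glycine and asparagine but not for all residues. There alanine codons differed by -0.24 (GCG) to -0.07 (GCT) and glycine codons by -0.21 (GGG) to -0.08 (GGT), while AAC and AAT were at 0.15 (log2, both sexes). Isoleucine codons were above 0 at that position, at 0.08 (ATC) to 0.14 (ATA), while isoleucine listed after aspartate was not higher in KO. The same residues after other codons were not set beside these sites, so the part of upstream aspartate was not tested. With alanine listed the occupancy was 1.18 in KO females against 1.55 in WT females, and 1.28 in KO males against 1.60 in WT males. With glycine listed it was 1.71 in KO females against 2.33 in WT females, and 1.85 in KO males against 2.23 in WT males. Both KO groups lay below WT there. With asparagine listed the values were 1.88 in KO females against 1.89 in WT females and 1.92 in KO males against 1.81 in WT males, so that the KO values were not the lower ones. With isoleucine listed, the residue at which upstream aspartate had its highest occupancy, they were 3.85 in KO females against 4.06 in WT females and 3.65 in KO males against 3.67 in WT males, and the libraries overlapped. Such splits were described and not tested.

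**Figure D4:**
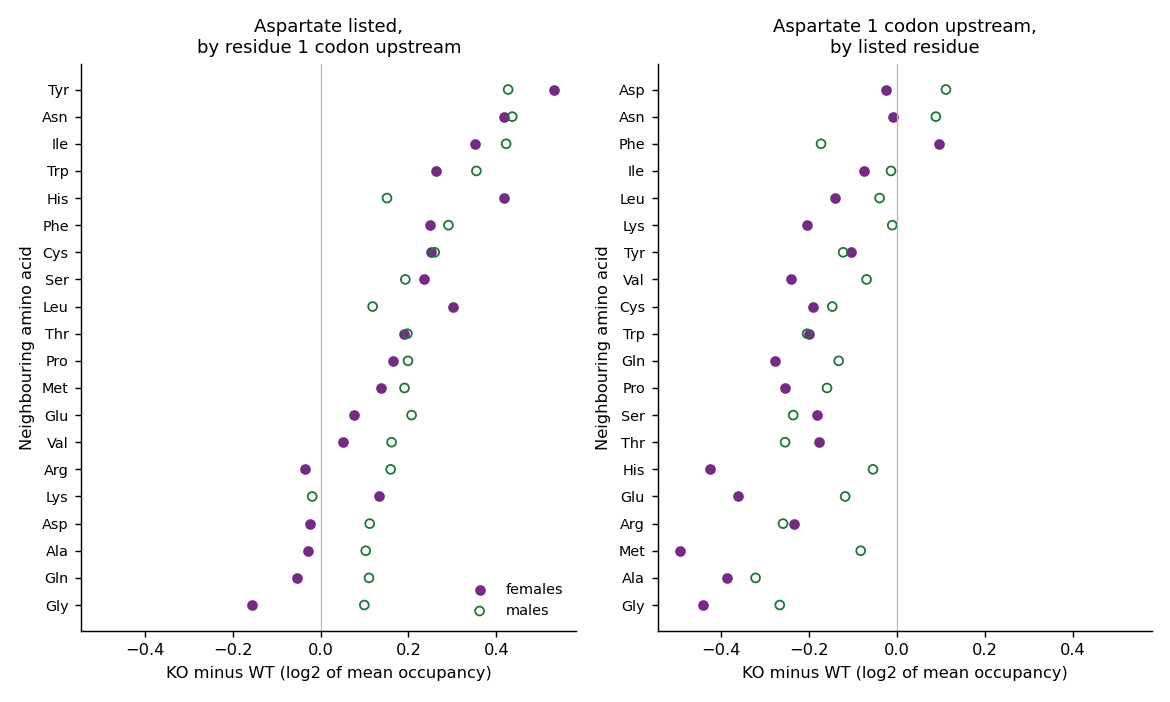
Difference between KO and WT in mean occupancy (log2) for listed aspartate by the residue 1 codon upstream (left) and for aspartate 1 codon upstream by the listed residue (right), with females as filled and males as open points. Tyrosine and asparagine are at the high end on the left, with differences of 0.53 and 0.42 in females, and methionine and glycine at the low end on the right, at -0.49 and -0.44.

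The differences were spread along the coding sequence. Upstream GAC was lower in KO of both sexes at codon positions 15 to 100, from there to 300, and past 300, with female differences of -0.19, -0.24 and -0.22 and male differences of -0.22, -0.16 and -0.15 on the log2 scale. Listed GAT was 0.17, 0.16 and 0.13 higher in females and 0.13, 0.14 and 0.20 higher in males over the same stretches, with overlap only in females past position 300. In females, the occupancy at upstream GAC was lower in acidic surroundings in both genotypes, a split that was described and not tested. Upstream GAC with 4 or more other acidic residues within 5 codons had an occupancy of 1.21 in KO females against 1.41 in WT females, where the libraries overlapped, and with at most 1 such residue 1.71 in KO females against 2.00 in WT females, where they did not.

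Single sites, a well-covered part of the same footprints, went in the same directions as the averages and are no separate support. Footprint counts were tested at 24840 sites with at least 100 footprints over the libraries, of which 2821 were listed aspartate and 2808 had aspartate upstream, relative to the total of the mRNA in each library. In the mean of both sexes 94 listed aspartate sites were called higher and 16 lower, which is 3.33% and 0.567%, where over all sites 1.46% were called higher and 0.974% lower (edgeR adjusted p under 0.05). Of sites with aspartate upstream 8 were called higher and 80 lower, or 0.285% and 2.85%. The median difference was 0.15 at listed aspartate and -0.14 at upstream aspartate, beside 0.04 over all sites. In females 235 listed sites were higher and 99 lower, and 59 upstream sites higher and 262 lower, where 6.11% and 4.96% of all sites were called. In males edgeR called 0 of 24840 sites, with 141 listed aspartate sites at an unadjusted p under 0.05 among 1110 of all sites, and limma on log2(occupancy + 0.1) also called 0 aspartate sites in males. The male medians were 0.18 for listed and -0.09 for upstream aspartate.

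These calls depended on single libraries. With KO female 1, KO female 2, WT female 2 or KO male 2 left out, no aspartate site was called in the mean of both sexes, listed or upstream, and the medians were 0.14 to 0.17 for listed and -0.12 to -0.15 for upstream aspartate. Without WT female 1 the counts were 21 listed sites higher and 15 upstream sites lower, without WT female 3 they were 37 and 30, and without WT male 1 they were 142 and 143. limma on the log2 occupancies called 0 sites in both sexes, with 614 of the 2821 listed aspartate sites at an unadjusted p under 0.05, beside 5037 of all 24840 sites, which is a similar share. Without WT females 1 and 2, which leaves 1 WT female, the medians were 0.21 for listed and -0.09 for upstream aspartate. Sites of 1 mRNA share its total and are not independent, and the 94 higher sites lay in 82 mRNAs with at most 4 in 1 of them, Lrp1.

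**Figure D5:**
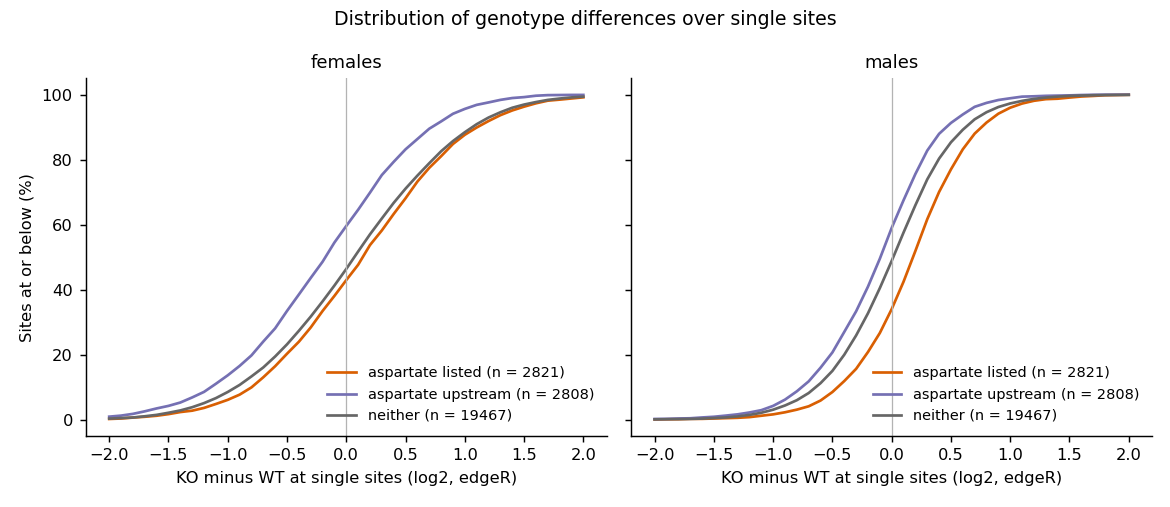
Share of single sites (percent) at or below each genotype difference (log2, edgeR) in females and males, for listed aspartate (orange), aspartate 1 codon upstream (violet) and sites with neither (grey). The orange curve runs to the right of the grey one and the violet curve to its left in both sexes.

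The called sites named here are those with the lowest p. They were chosen in these same libraries, so their size, direction and lack of overlap between genotypes are no separate support. The 20 listed aspartate sites were all higher in KO, with differences of 1.04 to 2.11 on the log2 scale and adjusted p of 0.018 to 0.0196 in edgeR, and 29 named sites, those with aspartate upstream included, lost their call in limma at adjusted p of 0.0923 to 0.104. Without single libraries the adjusted p of these 29 sites ranged from 0.00253 to 0.156, and the direction was the same in every fit. In Wdr47, a WD40-repeat protein of neurons, codon 864 had an occupancy of 77.5, 65.7 and 48.3 in KO females against 18.6, 17.4 and 5.78 in WT females, and 34.4 and 44.5 in KO males against 18.3 and 16.2 in WT males. It follows the tyrosine codon TAC and rose by 1.69 (SE 0.29, edgeR adjusted p = 0.018). The genotypes did not overlap at this site. The listed aspartate sites called in Sorl1 and Gnai3 also follow tyrosine, and those in Slc2a13, Bcan and Icam5 follow asparagine, whose codons are read by queuosine tRNAs too.

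The called sites in Rtn1 and Fbxo42 had no queuosine-read codon directly before them. In Rtn1, a reticulon of the endoplasmic reticulum, codon 111 follows serine and had 25.5, 27.2 and 16.5 in KO females against 6.82, 5.19 and 6.27 in WT females, and 13.1 and 23.2 in KO males against 9.78 and 9.72 in WT males. In Fbxo42, an F-box protein of a ubiquitin ligase, codon 505 follows tryptophan and had 53.7, 38.4 and 34.3 in KO females against 6.53, 2.71 and 4.16 in WT females, and 33.5 and 39.2 in KO males against 15.2 and 20.8 in WT males. That value rests on 3, 1 and 2 footprints in the WT females. Sites in the matrix proteoglycans Ncan and Bcan, in the chaperone-like disulfide isomerase Pdia4, in the receptors Lrp1, Sorl1 and Igf2r, in the inositol transporter Slc2a13 and in the neuronal adhesion molecule Icam5 were called as well. The remaining named sites were in Dkk3, an inhibitor-family protein of Wnt signalling, Camk2n1, an inhibitor of the kinase CaMKII, Anapc2, a subunit of the anaphase-promoting complex, Tagln3, Nsf, an ATPase of membrane fusion, Glud1, glutamate dehydrogenase, Gnai3, an inhibitory G protein subunit, and Nrgn, which binds calmodulin at synapses.

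The share of tested listed sites that was called varied with the residue before them. Such shares were not counted for listed codons of other amino acids after the same residues. Of 108 sites after tyrosine 15 were called higher and 0 lower, and of 126 after asparagine 11 and 0. After histidine 6 of 31 were higher and 0 lower, and after aspartate 2 of 274 were higher and 4 lower. After tryptophan, which no queuosine tRNA reads, 4 of 36 were higher and 0 lower, and its median difference of 0.52 was above the 0.42 after tyrosine and the 0.41 after asparagine and after histidine. In all 16 other classes together, tryptophan included, 60 of 2282 were higher and 12 lower, with a median of 0.15. Of the codons directly after a higher aspartate site, 48 were tested themselves and 47 of them were not called.

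Sites after an aspartate codon with the lowest p were chosen after their values were seen. In Sdhb, the iron-sulfur subunit of succinate dehydrogenase, the proline codon after codon 238 had an occupancy of 14, 9.81 and 11.9 in KO females against 46.4, 41.7 and 45.6 in WT females, and 21.2 and 16.4 in KO males against 22.3 and 28.6 in WT males. It fell by 1.17 (SE 0.21, edgeR adjusted p = 0.018), and the genotypes did not overlap in either sex. In Prnp, the prion protein gene, the site after codon 166 had 1.13, 1.96 and 2.92 in KO females against 5.15, 6.38 and 5.73 in WT females, and 1.45 and 0.824 in KO males against 2.74 and 2.45 in WT males. In Eef1a2, the elongation factor that brings charged tRNA to the ribosome in neurons, the site after codon 328 averaged 2.05 ± 0.18 in KO females and 6.17 ± 1.47 in WT females, and 1.77 ± 0.28 in KO males and 2.92 ± 0.78 in WT males. The other 7 were in Tmem130, Phyhip, Sorl1, Nceh1, Cpe and Nsf, all lower, and in Camk2n1, where the listed codon is itself aspartate and the site was higher.

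The 10 leading aspartate sites by WT occupancy, 1 per gene, were not called in both sexes by edgeR. Choosing sites by WT values alone can lower KO minus WT at them, so no conclusion is drawn from their differences. Among the 1110 aspartate sites with at least 10 footprints in each library, in 572 mRNAs, the mean occupancy in WT libraries had a median of 14.3 and a highest value of 612, and 52 sites were above 100. In Ap1b1, a subunit of the AP-1 clathrin adaptor, codon 649 had an occupancy of 724, 622 and 665 in KO females against 553, 655 and 649.7 in WT females, and 645 and 756 in KO males against 642 and 562 in WT males. In Hk1, hexokinase 1, codon 17 averaged 578 ± 6 in KO females and 584 ± 10 in WT females, and 626 ± 24 in KO males and 558 ± 66 in WT males. The other 8 were in Acap3, Wdr7, Lonrf2, Actr1a, Strn, Fam76b, Dnm1l and Bbs4. Their differences ran from -0.66 in Wdr7, the widest of them with an adjusted p of 0.173, to 0.34 in Strn, and at the Lonrf2 site the M21 transcript does not carry aspartate.

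Genes that make or use aspartate tRNA were measured in the count tables of the same animals. The list holds 14 symbols, of which 12 are in the table, the others being newer names of listed genes. In footprints of both sexes 0 of 12 were called higher and 1 lower, beside a background of 0% higher and 0.00761% lower among 13143 genes, and the median difference was 0.03 in the list and 0.00 over all genes. Qtrt1, the catalytic subunit that was deleted, fell by 3.25 (SE 0.32, edgeR adjusted p = 0.00102), whereas Qtrt2, its partner, was at 0.09 (SE 0.18). Dars, the cytosolic enzyme that charges tRNA with aspartate, had 230.0, 225 and 209 CPM in KO females against 163, 160.0 and 154 CPM in WT females, and 148 and 182 CPM in KO males against 148 and 123 CPM in WT males. All KO libraries were above the WT libraries of their sex, in males by a narrow margin, and the difference of 0.36 (SE 0.09) had an adjusted p of 0.0629 in both sexes. In females Dars rose by 0.44 (edgeR adjusted p = 0.0312), in a comparison that called 2.81% of genes higher and 4.25% lower. That call was lost without KO female 1 or 2 or without any 1 of the WT females.

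Among the elongation factors, Eef1a2 and Eef2 were lower in KO females. Eef1a2 had 1637, 1592 and 1927 CPM in KO females against 2457, 2073 and 2470 CPM in WT females, and 1954 and 1716 CPM in KO males against 2192 and 2673 CPM in WT males. All KO values were below WT of their sex, at -0.44 (SE 0.09, adjusted p = 0.0615) in both sexes, and Eef1a2 fell by 0.48 and Eef2, the translocation factor, by 0.37 in females (edgeR adjusted p = 0.0327 and 0.0337). Both female calls were lost without KO female 1 or 2 or WT female 1 or 3, with adjusted p of up to 0.136 and 0.145, and both, like that of Dars, with the replicate block (0.0664 and 0.0768, and 0.0867 for Dars). The others were not called in any group of footprints. In both sexes the difference was 0.06 for Eef1a1, the other eEF1A gene, and 0.24 for Trdmt1, the methyltransferase of the aspartate tRNA loop. Nsun2, another tRNA cytosine methyltransferase, was at 0.02, Gtdc1, which adds mannose to queuosine in the aspartate tRNA, at 0.03, 2210016F16Rik, which salvages queuine, at -0.06, and Slc35f2, which carries queuine into cells, at 0.30. In input RNA of both sexes 0 of 12 genes were called higher and 1 lower, beside 0.0918% and 0.642% of 14164 genes, and that gene was Qtrt1, which fell by 1.47 (SE 0.14, edgeR adjusted p = 0.00356). Dars was at 0.02 (SE 0.06) and Eef1a2 at -0.23 (SE 0.07, adjusted p = 0.121) in input RNA. Without WT male 1, the deepest library, Dars was called higher and Eef1a2 and Eef2 lower in footprints of both sexes, where 1453 genes were called against 1 with all libraries. DESeq2 also called these 3 in both sexes.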

How the data were processed

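Ribosome footprints and input RNA of the hippocampus of 5 Qtrt1-/- and 5 wild-type mice were used. Gene counts, and counts of footprints per codon with the authors' ratio of single-codon occupancy and the percent of coding sequence covered, were deposited by the authors, as were mean enrichment ratios per codon and position, 90 codons to either side. The submitters' processing notes name cutadapt 1.8.1, Trimmomatic 0.39, Bowtie 1.0.0 and 1.2.2 and SAMtools 0.1.19. The genome build, strand use, the definition of the enrichment ratio and the ribosomal site were not given in the sources used here, and the percent column was only summarised. Reads without molecular identifiers are not independent molecules. The total footprint counts per library were 5357812 to 15517982 in the gene table; a lower total gives less precise values.

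The members and lists were chosen with earlier results of these data known. Ratios were fitted as log2 in limma 3.58.1 with a mean for each genotype and sex over 61 codons, or over all codons and positions; single values were tested by exact two-sided permutation of genotype within sex, which can reach 0.0167 in both sexes, 0.1 in females and 0.333 in males. Sites were fitted in edgeR 4.0.16 (quasi-likelihood) with the total of the mRNA as offset, and genes with TMM and filterByExpr. P-values were adjusted by Benjamini-Hochberg over each whole table and called under 0.05. The labels give genotype, sex and age, but no litter or day that would say how the replicates of a group are related, so p-values measure the spread between these samples. Named were every listed gene, up to 20 called aspartate sites by p, the 10 with the highest WT occupancy, and, added later, 10 called sites after aspartate. Of these, 1 listed gene and 1 called aspartate site are not reported here by name. The limma fit over codons and the edgeR fits of sites and genes were tested on simulated data. In males, animals with the same number had the same age. Same-numbered animals did not deviate together in footprints, so the replicate block was kept as an alternative. Stop codons hold no ratio, and the deposited SD tables, which describe positions within a library, were not used.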

Additional observations from a re-analysis of the deposited data

How the results depend on the processing

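In footprints same-numbered KO and WT animals did not deviate together (correlations of -0.0774 in males and -0.121, -0.177 and -0.207 in females). In input RNA the values were 0.0943 in males and -0.113, -0.210 and -0.208 in females. For the codon enrichment ratios they were -0.398, -0.0589 and -0.465 in females and -0.303 in males. In males a shared number is also a shared age, and in females the labels give no more than the number. The replicate block adds terms to the fit, so a call lost under it cannot be told from lost precision. The replicate block left GAC at position 1 at -0.229 in females and -0.207 in both sexes, GAT at -0.221 in females and upstream GAC at -0.218 in females, none of them called. Under it 38 listed sites were higher and 1 lower, and 3 upstream sites higher and 27 lower.

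Dividing by the median codon gave GAC at position 1 in females -0.328 (not called), GAT in both sexes -0.216 (called) and upstream GAC in both sexes -0.226 (called). Leaving out WT females 1 and 2, which leaves 1 WT female, gave GAC -0.272 in females and -0.228 in both sexes, and GAT -0.117 in females. Summing positions 0 and 1 gave GAC -0.080 in females, -0.0035 in males and, over both, -0.042, and GAT -0.075, 0.025 and -0.025, which reverses position 0 for GAC and, outside males, for GAT, and position 1 for GAT in males. Capping occupancy at 10 gave listed GAC -0.0034 in females, -0.016 in males and, over both, -0.0096, listed GAT -0.0060 in males, and upstream GAC -0.187 in females. Listed codons alone gave upstream GAC -0.139 in females, 0.153 in males and, over both, 0.0071, and upstream GAT 0.110 in males. In mRNAs with 100 footprints listed GAT was 0.157 and upstream GAC -0.174 in both sexes, both called, and annotated positions gave upstream GAC -0.183 in both sexes and upstream GAT -0.218 in females. As a linear difference the female gap at position 1 was 0.118.

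At 50 counts 59 listed sites were higher and 8 lower, and 5 upstream sites higher. limma called 87 listed sites higher and 29 lower and 15 upstream sites higher and 88 lower in females, and 0 in both sexes. In footprints 3 listed genes were called in both sexes without a filter and 3 by DESeq2, and 2 in input by DESeq2.

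Leaving out 1 library at a time, with a lone male assumed to vary like the other groups, GAC at position 1 ranged from -0.250 to -0.207 in females, -0.254 to -0.116 in males and -0.241 to -0.172 over both sexes. GAT at position 1 ranged from -0.274 to -0.182 in females and -0.167 to -0.121 over both. At position 0 male GAC ranged from 0.016 to 0.320 and GAT over both from 0.124 to 0.168. Listed occupancy ranged from -0.067 to 0.250 for male GAC and 0.134 to 0.159 for GAT over both, and upstream occupancy from -0.239 to -0.197 for female GAC, -0.166 to -0.131 for GAC over both and -0.228 to -0.136 for female GAT. The gap ranged from -0.048 to 0.066 at position 1 in females, and at position 0 from -0.147 to 0.173 in males and -0.120 to 0.040 over both. The female GAC share ranged from -0.055 to 0.297 points. Called sites over both sexes ranged from 0 to 142 and 0 to 36 for listed aspartate higher and lower, and 0 to 34 and 0 to 143 upstream. In females they ranged from 2 to 315, 1 to 150.0, 0 to 106 and 6 to 351. Listed genes called ranged from 1 to 4 in footprints and 1 to 3 in input. With 2 males per genotype, the exact test could not go below 0.333 in males. The planned minimum of 1 footprint per listed codon changed nothing by construction, since no library lists a codon without one.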
